A study of Sus scrofa with 10 samples.

Results

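The tubulin and cytoskeletal actin genes followed here are 10 genes named by symbol: TUBB, TUBB6, TUBB4B, TUBA1B, TUBA1C, TUBG1, STMN1, ACTB, ACTG1 and TMSB10. Among the 31905 genes of the deposited pig liver table, 9 of the 10 were found by symbol. TUBA1C had no row under that symbol and no value is given for it. The members were chosen by their FPKM in all 10 libraries, so their own levels and differences are given as a description, with no p-value. Where they passed the threshold used for all genes is given as a count beside the share of all genes that did, and nothing is read from it.

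The study asked what a bioartificial liver does to the liver of pigs in liver failure after removal of part of the liver. Such a device passes the animal's blood over liver cells outside the body, here human induced hepatocytes, which are hepatocyte-like cells made from another human cell type. RNA sequencing covered 10 libraries of wild-type pig liver in 5 groups. Control was normal liver on day 0, with 3 libraries. NoBAL was failing liver with no device on day 2, with 2 libraries. EmptyBAL was failing liver treated with an empty device, on day 3, with 2 libraries. hiHepD4 and hiHepD8 were livers treated with the cell-filled device, on day 4 with 1 library and on day 8 with 2. Age, breed and the number of animals are not given in the labels. Every comparison between groups is therefore also a comparison between days.

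Microtubules are hollow polymers of paired alpha- and beta-tubulin, started from rings that hold gamma-tubulin, and stathmin, the product of STMN1, binds free tubulin pairs and keeps them out of the polymer. Actin filaments are built from beta-actin and gamma-actin (ACTB and ACTG1), and the small beta-thymosins, among them TMSB10, hold actin monomers in reserve. In hepatocytes, microtubules carry secretory vesicles, actin lines the bile canaliculi, and dividing cells rebuild their microtubules into the mitotic spindle. ACTB is also widely used as a reference gene for expression measurements.

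FPKM are fragments per kilobase of gene, scaled to each library, so levels of different genes can be set side by side on this scale. Library sums of FPKM ranged from 439925 to 829970, and the sequencing depth is unknown. Pearson correlation of log2(FPKM + 1) across genes was 0.995 to 0.997 for pairs of Control libraries, 0.996 for the hiHepD8 pair, 0.980 for the NoBAL pair and 0.952 for the EmptyBAL pair. Nothing in the labels ties the libraries of a group to separate animals, and the p-values below cover the spread between libraries alone, which may be technical. Hepatocyte marker genes (8 of 9 found) summed to 72235 to 74409 FPKM in Control and to 3544.5 to 24627 FPKM in the other 7 libraries. Gene by gene, 4 of these 8 passed the limma test described below as lower in NoBAL than in Control. All 8 did in EmptyBAL and 2 in hiHepD8, where 1 passed as higher. Among all genes tested, 24.2%, 29.3% and 17.1% passed as lower in these groups, and 15.1% as higher in hiHepD8. The hiHepD8 counts were near these shares. The labels name both liver and hepatocyte, and marker genes of other liver cells were present in all libraries, so the values are those of a mixed tissue. In such bulk RNA, fewer cells of a type and less RNA per cell cannot be told apart.

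The 9 genes followed different courses over the 5 groups. TUBB, TUBB4B, TUBA1B and STMN1, and to a smaller degree TUBG1, were high in NoBAL and lower in EmptyBAL and hiHepD4, and stood near Control in hiHepD8. On the deposited scale, ACTB and ACTG1 stayed nearer to Control in NoBAL, EmptyBAL and hiHepD4, and were at 26.8% and 26.1% of its mean in hiHepD8. TMSB10 was highest in EmptyBAL. TUBB6, the weakest of the tubulins here, was lowest in hiHepD8.

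**Figure D1:**
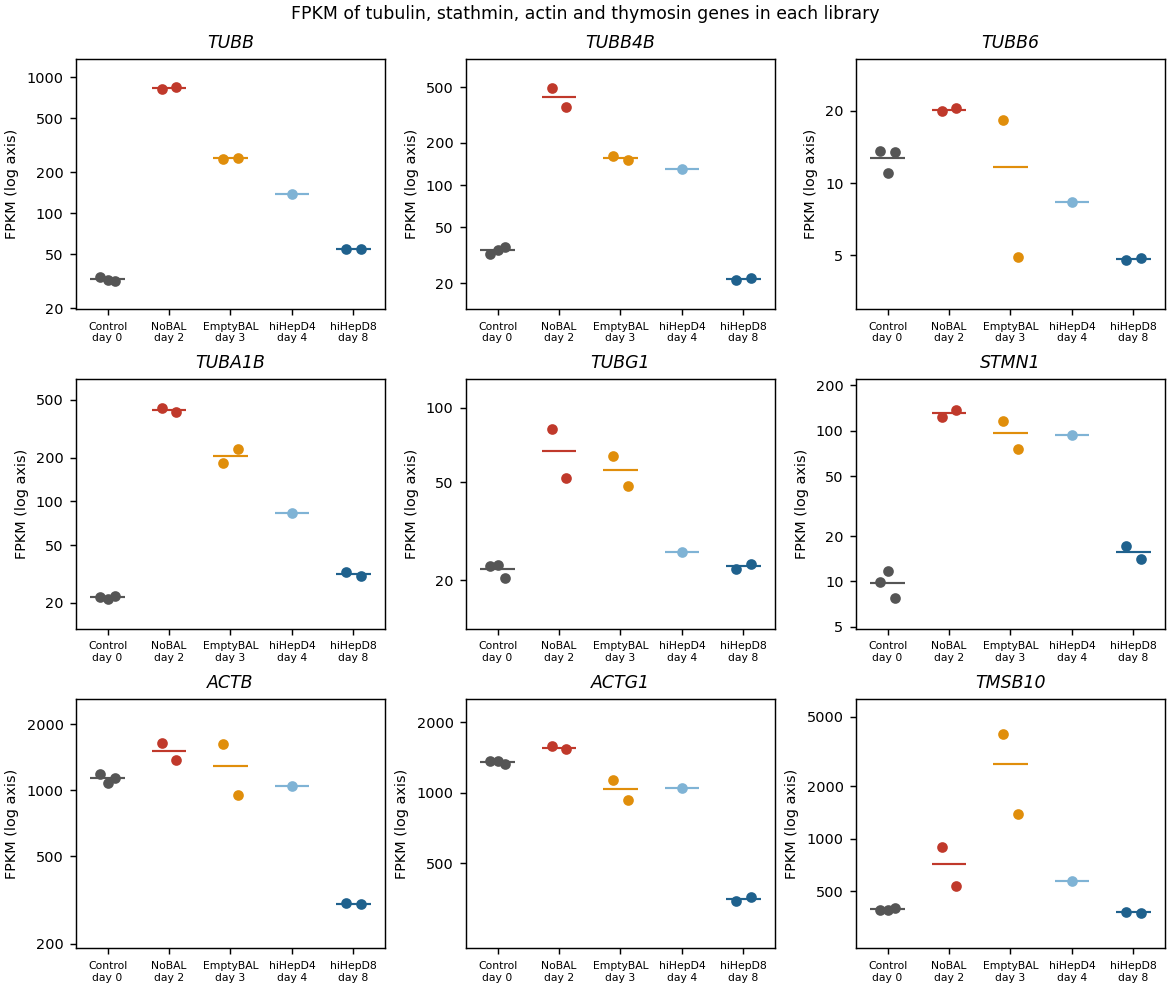
FPKM (log axis) of the 9 measured genes in each of the 10 libraries. Points are libraries, horizontal lines are group means, and groups are labelled with their day. TUBB, TUBB4B and TUBA1B step down from NoBAL to hiHepD8, and STMN1 stays high up to hiHepD4. ACTB and ACTG1 are far below Control in hiHepD8 alone.

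TUBB encodes the widely expressed class I beta-tubulin, and the reference annotation of Sscrofa11.1 places it on chromosome 7, from 23247827 to 23252240. Its FPKM were 34.2, 32.3 and 31.7 in the Control libraries, 824 and 852 in those of NoBAL, 249 and 257 in those of EmptyBAL, 138 in the hiHepD4 library, and 54.8 and 54.8 in those of hiHepD8. No 2 groups overlapped, and libraries of 1 group lay close together. The NoBAL mean, 838 ± 20.0 FPKM (SD, n = 2), was 25.6 times the Control mean of 32.8 ± 1.31 (SD, n = 3), a log2 difference of 4.64 ± 0.16 (SE) on the log2(FPKM + 1) scale used throughout. The EmptyBAL mean was 7.73 times Control and the hiHepD4 value 4.23 times. In hiHepD8 the mean was 1.67 times Control and 15.3 times below NoBAL, log2 differences of 0.72 ± 0.16 and -3.91 ± 0.17.

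TUBB4B, the class IVb beta-tubulin found in most tissues and in cilia, lies on a scaffold not placed on a chromosome. Its FPKM were 32.4, 34.8 and 36.2 in Control, close to those of TUBB. They reached 495 and 359 in NoBAL, 161 and 151 in those of EmptyBAL and 131 in hiHepD4, and were 21.0 and 21.8 in hiHepD8. TUBB4B therefore ended below Control, where TUBB ended above it. The log2 difference was 3.58 ± 0.19 for NoBAL against Control, 2.15 ± 0.19 for EmptyBAL against Control and -0.66 ± 0.19 for hiHepD8 against Control. Against NoBAL, hiHepD8 was 19.9 times lower, the widest gap between these groups among the 9 genes.

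TUBB6, the class V beta-tubulin (chromosome 6, 97233639 to 97240692), had FPKM of 13.6, 11.03 and 13.5 in Control and 19.9 and 20.6 in NoBAL. The EmptyBAL libraries disagreed, with 18.4 and 4.92 FPKM, so that 1 lay above and 1 below all Control libraries. The hiHepD4 library held 8.34 FPKM and the hiHepD8 libraries 4.79 and 4.88. The log2 difference from Control was 0.64 ± 0.42 in NoBAL and -1.23 ± 0.42 in hiHepD8. TUBB6 thus was lowest in hiHepD8, as the actins were, but 1 EmptyBAL library stood at nearly the same level. It lacked the large NoBAL values of TUBB and TUBB4B.

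TUBA1B, a ubiquitous alpha-tubulin (chromosome 5, 15150229 to 15153620), tracked TUBB. Its FPKM were 21.8, 21.3 and 22.4 in the Control libraries, 435 and 409 in those of NoBAL, 182 and 231 in those of EmptyBAL, 82.9 in the hiHepD4 library, and 32.8 and 30.7 in those of hiHepD8. The NoBAL mean was 19.3 times Control (log2 difference 4.21 ± 0.17) and the hiHepD8 mean 1.45 times (0.52 ± 0.17). TUBB exceeded TUBA1B in each library, with a ratio between 1.12 and 2.08. TUBA1B differs little in sequence from the other alpha-1 tubulins, including TUBA1C and TUBA1A, which had no row by symbol, so fragments of these genes may have been counted in its row. The same holds for ACTB and ACTG1 and for the beta-tubulins among themselves.

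TUBG1 encodes gamma-tubulin, which nucleates microtubules at centrosomes, and its reference coordinates could not be matched. FPKM were 22.9, 23.1 and 20.4 in the Control libraries, 82.1 and 52.1 in those of NoBAL, 63.9 and 48.4 in those of EmptyBAL, 26.1 in the hiHepD4 library, and 22.3 and 23.3 in those of hiHepD8. The NoBAL and EmptyBAL libraries overlapped each other and lay above the rest, and the hiHepD8 libraries overlapped Control. The log2 difference was 1.52 ± 0.23 for NoBAL against Control and 0.04 ± 0.23 for hiHepD8 against Control.

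STMN1 (chromosome 6, 83356404 to 83362546) encodes stathmin, a microtubule-destabilising protein that is abundant in dividing cells. Its FPKM were 9.91, 11.6 and 7.77 in the Control libraries, 123 and 138 in those of NoBAL, 117 and 75.6 in those of EmptyBAL, and 93.8 in hiHepD4. The hiHepD8 libraries, at 17.1 and 14.1 FPKM, were close to Control without overlapping it. STMN1 stood nearer to its NoBAL level in hiHepD4 than the tubulins did: its value there was 0.717 times its NoBAL mean, against 0.165 times for TUBB, 0.197 for TUBA1B, 0.307 for TUBB4B, 0.389 for TUBG1 and 0.412 for TUBB6. The ratio of STMN1 to TUBB, which no library scaling can alter, was 0.245 to 0.360 in the Control libraries, 0.150 and 0.162 in those of NoBAL, 0.468 and 0.294 in those of EmptyBAL, 0.677 in the hiHepD4 library, and 0.312 and 0.258 in those of hiHepD8. One EmptyBAL library thus also lay above Control. hiHepD4 is a single library, so this difference has no replicate check.

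Genes of cell division moved with these 5. The 9 division markers found of 10 (among them TOP2A, CDK1, UBE2C and BIRC5) summed to 12.4 to 13.7 FPKM in the Control libraries, 373 to 545 in those of NoBAL, 266 to 286 in those of EmptyBAL, 190 in hiHepD4 and 8.49 to 9.07 in hiHepD8. All 9 passed the test as higher in NoBAL than in Control, where 25.2% of all genes did. All 9 passed as lower in hiHepD8 than in NoBAL, where 24.8% did. CDK1, the kinase that drives entry into mitosis, was listed at 0 in 1 Control library and between 16.6 and 18.6 FPKM in NoBAL. In hiHepD8 the sum of the 9 lay below Control, and 3 of them passed as lower and none as higher, where 17.1% and 15.1% of all genes did. The TUBB, TUBA1B and STMN1 libraries lay above Control there, those of TUBB4B below it, and those of TUBG1 overlapped it. The part of cell division in the tubulin values was not tested.

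ACTB (chromosome 3, 4084275 to 4090383) encodes beta-actin. Its FPKM were 1189.6, 1077 and 1139.6 in the Control libraries, 1637 and 1368 in those of NoBAL, 1629 and 954 in those of EmptyBAL, 1046 in the hiHepD4 library, and 305 and 304 in those of hiHepD8. The NoBAL libraries lay above Control and the EmptyBAL libraries on both sides of it. Only the hiHepD8 libraries lay far from the rest, at 26.8% of the Control mean. The log2 difference was 0.40 ± 0.28 for NoBAL against Control and -1.89 ± 0.28 for hiHepD8 against Control.

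ACTG1 (chromosome 12, 1320355 to 1323219), gamma-actin, behaved alike. Its FPKM were 1360.5, 1367 and 1321 in the Control libraries, 1577 and 1538 in those of NoBAL, 1137 and 929 in those of EmptyBAL, 1051 in the hiHepD4 library, and 347 and 357 in those of hiHepD8. Its EmptyBAL and hiHepD4 values lay below all Control libraries, and its hiHepD8 mean was 26.1% of Control. The log2 difference from Control was 0.21 ± 0.22 in NoBAL, -0.39 ± 0.22 in EmptyBAL and -1.94 ± 0.22 in hiHepD8. ACTB made up 44.1% to 46.7% of the summed ACTB and ACTG1 FPKM in Control and 46.0% and 46.8% in hiHepD8, so both actins were lower there by about the same factor. It made up 58.9% and 50.7% in EmptyBAL.

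Smooth muscle actin, ACTA2, a marker of activated stellate cells and vessel walls, did not share the low hiHepD8 level. It had 201 to 238 FPKM in Control and 166 and 169 in hiHepD8, a log2 difference of -0.38 ± 0.38 (limma, adjusted p = 0.48). Its ratio to ACTB was 0.176 to 0.221 in Control, 0.545 and 0.555 in hiHepD8, and 0.0441 in hiHepD4. The 10 stellate cell markers, ACTA2 included, summed to 338 to 373 FPKM in the Control libraries, 637 to 913 in those of NoBAL, 581 to 855 in those of EmptyBAL, 157 in hiHepD4 and 615 to 621 in hiHepD8. The part of these cells in the actin values was not tested.

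The actins were set beside 11 other genes often used as references. The highest group mean was 4.93 times the lowest for ACTB and 4.43 times for ACTG1. The same ratio was 6.59 for TFRC, the transferrin receptor, and 1.28 for TOP2B, a topoisomerase gene. In hiHepD8 10 of these 13 genes were below 100% of Control, among them ACTG1 at 26.1%, ACTB at 26.8%, the lysosomal enzyme gene GUSB at 41.1%, the glycolytic enzyme gene GAPDH at 45.8% and SDHA at 71.6%. TOP2B, RPLP0 and RPL4 were at 106%, 109% and 121%. Scaling moved these percentages by 1 common factor and left their order as it was. ACTB and ACTG1 stood at 31.1% and 30.3% with upper quartile scaling, where 10 of the 13 were below 100%, and at 39.9% and 38.8% with all libraries set to the same sum of FPKM (equal sums), where 9 were.

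**Figure D2:**
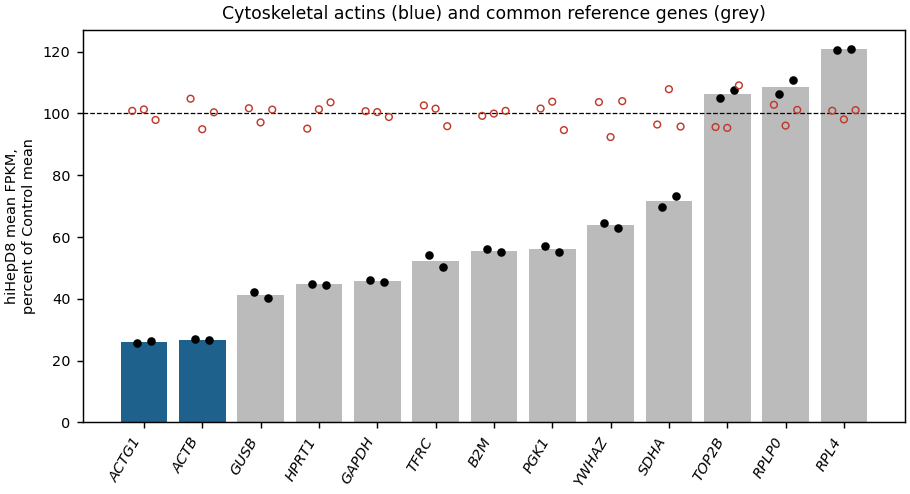
Mean FPKM in hiHepD8 as a percentage of the Control mean for ACTB and ACTG1 (blue bars) and 11 other reference genes (grey bars). Black points are the 2 hiHepD8 libraries, open red circles the 3 Control libraries, both relative to the Control mean, and the dashed line is 100%. ACTG1 and ACTB stand at 26.1% and 26.8%, and the grey bars run from 41.1% for GUSB to 121% for RPL4.

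TMSB10 (chromosome 3, 59776236 to 59777252) encodes thymosin beta-10. Its FPKM were 393, 391 and 402 in the Control libraries, 889.7 and 538 in those of NoBAL, 3968 and 1381 in those of EmptyBAL, 575 in the hiHepD4 library, and 382 and 376 in those of hiHepD8. The EmptyBAL libraries were the highest and differed from each other more than those of any other group. The log2 difference was 2.56 ± 0.44 for EmptyBAL against Control and 0.81 ± 0.44 for NoBAL against Control. For hiHepD8 against Control it was -0.06 ± 0.44, and the sign turned with the scaling, to 0.16 with upper quartile scaling and 0.51 with equal sums. The ratio of TMSB10 to ACTB, free of scaling, was 0.330 to 0.363 in the Control libraries, 0.544 and 0.393 in those of NoBAL, 2.43 and 1.45 in those of EmptyBAL, 0.549 in the hiHepD4 library, and 1.25 and 1.24 in those of hiHepD8. In EmptyBAL TMSB10 was high, and in hiHepD8 ACTB was low.

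TMSB4X, which encodes thymosin beta-4, the other abundant actin-holding peptide, had 276 to 291 FPKM in the Control libraries, 350 and 224 in those of NoBAL, 3097 and 907 in those of EmptyBAL, 321 in the hiHepD4 library, and 563 and 559 in those of hiHepD8. It passed the test in EmptyBAL against Control (log2 difference 2.55 ± 0.48, limma adjusted p = 0.003) and not in hiHepD8 against Control (0.98 ± 0.48, adjusted p = 0.16). The ratio of TMSB10 to TMSB4X was 1.35 to 1.42 in the Control libraries, 2.54 and 2.41 in those of NoBAL and 0.678 and 0.673 in hiHepD8. The balance of the pair was thus shifted towards TMSB10 in NoBAL and towards TMSB4X in hiHepD8.

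Marker sums of neutrophils, lymphocytes and cholangiocytes were high in EmptyBAL, where TMSB10 was highest. The 6 neutrophil markers found of 8 summed to 4.72 to 6.89 FPKM in the Control libraries, 238 and 29.0 in those of NoBAL, 638 and 108 in those of EmptyBAL, 67.0 in the hiHepD4 library, and 1.599 and 1.87 in those of hiHepD8. The first library of NoBAL and of EmptyBAL was the higher in each pair, as it was for TMSB10. The first library also had the larger sum of all FPKM, 791281 against 526565 in NoBAL and 496390 against 439925 in EmptyBAL. The lymphocyte, cholangiocyte, stellate cell and platelet and red cell sums had the same order. The macrophage, hepatocyte and cell division sums had it in NoBAL but not in EmptyBAL, and the endothelial sum in EmptyBAL but not in NoBAL. With equal sums the stellate cell and cholangiocyte order in NoBAL would be turned. In EmptyBAL most of the cholangiocyte sum was 1 gene, SPP1, and the rest of that sum had the opposite order. S100A8, which encodes a calcium-binding protein of neutrophils, was listed at 0 in all 3 Control libraries and at 175 and 27.6 FPKM in EmptyBAL, whereas the granule enzyme gene MPO stayed at or below 0.674 FPKM in all 10. The 10 lymphocyte markers found of 11 summed to 37.4 to 41.9 FPKM in the Control libraries, 61.1 and 36.4 in those of NoBAL, 121 and 73.1 in those of EmptyBAL, 38.8 in hiHepD4, and 42.8 and 40.05 in hiHepD8. Of 7 tested, 5 passed as lower and 1 as higher in NoBAL than in Control, where 24.2% and 25.2% of all genes did. In EmptyBAL 3 passed as higher and 1 as lower than in Control, where 24.4% and 29.3% of all genes did. The 9 macrophage markers found of 10 summed to 1099 to 1205 FPKM in the Control libraries, 458 and 218 in those of NoBAL, 845 and 1240 in those of EmptyBAL, on both sides of Control, 1078 in hiHepD4, and 867 and 876 in hiHepD8. Gene by gene, 5 of the 9 passed as higher and 1 as lower in EmptyBAL than in Control, where 24.4% and 29.3% of all genes did. In NoBAL none passed as higher and 5 as lower than in Control, where 25.2% and 24.2% of all genes did. Against NoBAL, 8 passed as higher in EmptyBAL, where 12.6% of all genes did. The 6 cholangiocyte markers found of 7 summed to 42.6 to 46.6 FPKM in Control and 626 and 308 in EmptyBAL. SPP1 made up most of these sums, with 23.1 to 25.1 FPKM in Control and 527 and 183 in EmptyBAL. It is also the gene nearest to TMSB10 in the likeness search below. Gene by gene, 4 of the 6 passed as higher and 1 as lower in EmptyBAL than in Control. In hiHepD8 the neutrophil sums lay below Control while TMSB4X lay above it. The part of such cells in the TMSB10 values was not tested.

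Besides the 3 members, 4 other beta-tubulin genes had a row, TUBB2B, TUBB3, TUBB4A and TUBB1. TUBB2A and TUBB8 had no row by symbol, so the sums and shares below leave them out. Summed over the 7, beta-tubulin was 87.4 to 89.8 FPKM in the Control libraries, 1370 and 1276 in those of NoBAL, 457 and 435 in those of EmptyBAL, 292 in the hiHepD4 library, and 87.1 and 87.4 in those of hiHepD8. On the deposited scale the hiHepD8 sum was back near Control. Upper quartile scaling shifts the Control libraries by -0.103 to -0.0703 on the log2 scale and those of hiHepD8 by 0.133 and 0.128. Equal sums shift them by 0.269 to 0.280, and by 0.824 and 0.870, so under both the hiHepD8 sum would stand above Control. The make-up of the sum differed from Control under any scaling. TUBB made up 35.3% to 38.6% of it in the Control libraries, 60.1% and 66.8% in those of NoBAL, 54.5% and 59.2% in those of EmptyBAL, 47.4% in hiHepD4, and 62.9% and 62.7% in hiHepD8. The TUBB4B share was 36.6% to 40.4% in Control and 24.1% and 24.97% in hiHepD8. The TUBB6 share was 12.6% to 15.3% in Control, 1.45% and 1.61% in NoBAL, and 5.50% and 5.58% in hiHepD8. TUBB4A, a beta-tubulin best known from brain, made up 5.39% to 6.55% in Control, under 1% in the NoBAL and EmptyBAL libraries, and 4.29% and 4.21% in hiHepD8. A lower share need not mean a lower level, since the TUBB6 mean was 12.7 FPKM in Control and 20.2 in NoBAL. These shares do not depend on how libraries are scaled, though the split between similar tubulin genes rests on the authors' counting.

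Among the alpha-tubulins with a row (TUBA1B, TUBA4A, TUBA8 and TUBAL3), TUBA8 led in Control, at 61.2% to 65.2% of their summed FPKM, and TUBA1B held 26.8% to 27.2%. In NoBAL the order was turned, with TUBA1B at 60.1% and 63.5% and TUBA8 at 18.2% and 18.5%. TUBA8 itself had a higher mean there, 125 FPKM against 51.1 in Control. In EmptyBAL TUBA1B held 87.5% and 70.7%. In hiHepD8 TUBA1B held 46.7% and 42.3% and TUBA8 34.3% and 39.6%, between the shares of NoBAL and Control. TUBA4A held 7.95% to 11.6% in Control and 18.9% and 18.1% in hiHepD8. Summed alpha-tubulin was 79.4 to 82.5 FPKM in the Control libraries, 724 and 644 in those of NoBAL, and 70.1 and 72.6 in hiHepD8.

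**Figure D3:**
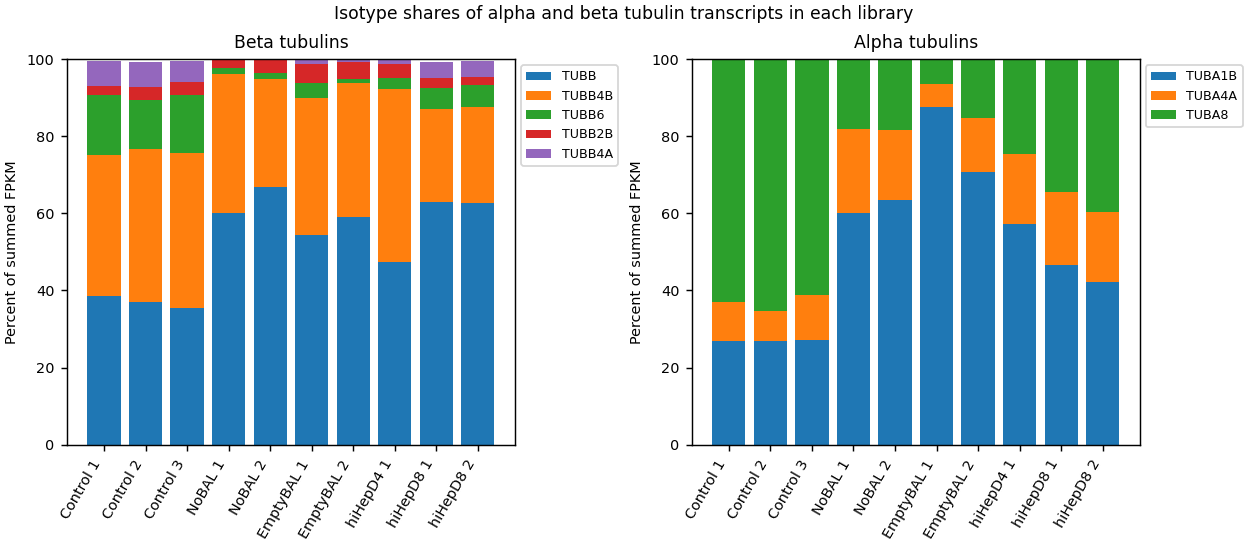
Share of each gene in the summed FPKM of the beta-tubulins (left) and alpha-tubulins (right) with a row, in percent (vertical axis), for each library; the smallest shares, of TUBB1, TUBB3 and TUBAL3, are not drawn. In hiHepD8 TUBB held 62.9% and 62.7% of beta-tubulin, against 35.3% to 38.6% in Control, and TUBA8 34.3% and 39.6% of alpha-tubulin, against 61.2% to 65.2%.

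Set against the actins, tubulin remained high in hiHepD8. Summed beta-tubulin over ACTB plus ACTG1 was 0.0348 to 0.0365 in the Control libraries, 0.426 and 0.439 in those of NoBAL, 0.165 and 0.231 in those of EmptyBAL, 0.140 in the hiHepD4 library, and 0.134 and 0.132 in those of hiHepD8. On the deposited scale, summed actin was 2444 to 2550 FPKM in Control and 651 and 662 in hiHepD8, whereas the beta-tubulin sums of these groups were close.

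The order of the levels differed between groups. In Control it ran ACTG1, ACTB, TMSB10, then TUBB4B and TUBB, whose libraries overlapped, then TUBG1 and TUBA1B, which overlapped too, then TUBB6 and STMN1, again overlapping. In NoBAL it ran ACTG1 and ACTB, which overlapped, then TUBB and TMSB10, which also overlapped, then TUBB4B and TUBA1B, likewise overlapping, then STMN1, TUBG1 and TUBB6. In EmptyBAL the TMSB10 mean stood first, though its lower library lay within the range of ACTB. In hiHepD8 TMSB10 stood above ACTG1 and ACTB, and TUBB above TUBA1B, TUBG1, TUBB4B, STMN1 and TUBB6.

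In limma, on the 12180 genes that reached 1 FPKM in 2 or more libraries, with a Benjamini-Hochberg adjusted p under 0.05 counted as passing, 5 of the 9 members passed in NoBAL against Control, where 49.4% of all genes did. All 5 were higher (25.2% of all genes were called higher and 24.2% lower), and the 9 members' groups did not overlap, as for 74.1% of all genes. The 5 were TUBB, TUBB4B, TUBA1B, TUBG1 and STMN1. In EmptyBAL against Control the same 5 and TMSB10 passed, 6 of 9, against 53.7% of all genes, each higher (24.4% of all genes), and 7 did not overlap (72.7%). In hiHepD8 against Control 4 passed against 32.2% of all genes: TUBB higher (15.1%), and TUBB4B, ACTB and ACTG1 lower (17.1%), and 8 did not overlap (80.0%). Since the members were chosen with these values known, nothing is read from the counts.

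In hiHepD8 against NoBAL 8 of the 9 passed, all lower, where 47.3% of all genes passed and 24.8% as lower, and all 9 did not overlap (79.5%). TMSB10 was the exception, at -0.87 ± 0.48. In hiHepD8 against EmptyBAL 8 passed, again all lower, where 40.2% of all genes passed and 17.6% as lower, and all 9 did not overlap (71.5%). TUBB6 was the exception there, at -0.88 ± 0.46. In EmptyBAL against NoBAL 4 passed, where 34.0% of all genes did: TUBB, TUBB4B and TUBA1B lower (21.4%) and TMSB10 higher (12.6%), and 7 did not overlap (59.0%). The comparisons share libraries, so their counts are not independent.

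**Figure D4:**
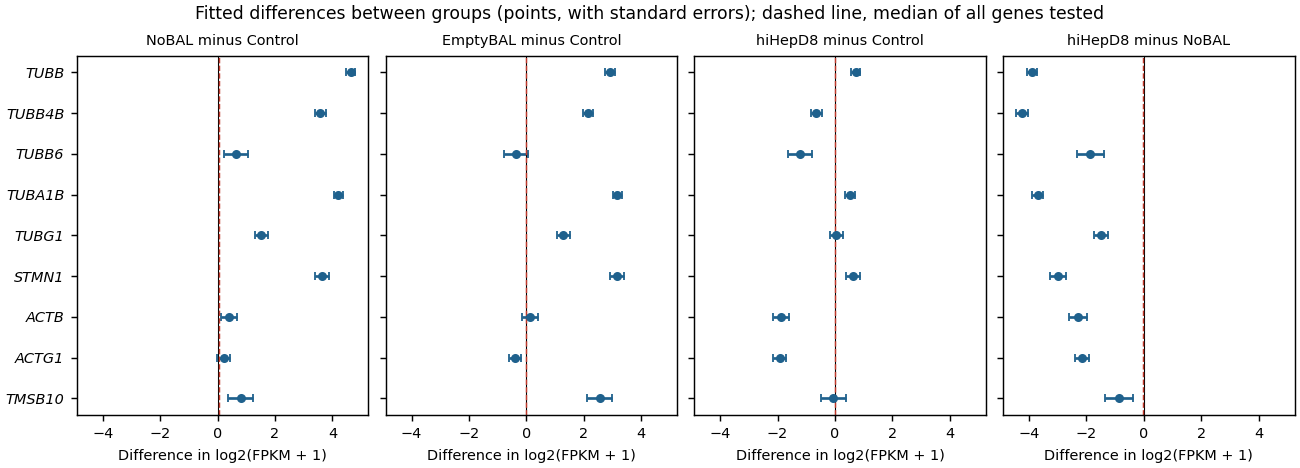
Difference in log2(FPKM + 1) of each of the 9 genes (horizontal axis) in 4 comparisons, as fitted by limma, with bars of 1 standard error. The dashed line is the median of all genes tested. TUBB, TUBB4B, TUBA1B and STMN1 lie above 3 in NoBAL minus Control, whereas ACTB and ACTG1 lie near -1.9 in hiHepD8 minus Control.

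Several of these calls were lost when the Control and the hiHepD8 libraries were averaged. That fit also has fewer libraries to estimate the spread from, and in EmptyBAL against NoBAL neither group was averaged. The cause of the losses was not tested. With the Control libraries averaged to 1 value and the hiHepD8 libraries likewise, 4 of the 5 members were called in NoBAL against Control (TUBG1 not), 3 of 6 in EmptyBAL against Control (TUBB, TUBA1B and STMN1), 3 of 8 in hiHepD8 against NoBAL (TUBB, TUBB4B and TUBA1B), and none in the other 3 comparisons. In hiHepD8 against Control the TUBB4B call was lost without any 1 of the 5 libraries, and the TUBB call without any 1 but Control replicate 1. The ACTB and ACTG1 calls held without each of them. The TUBB6 call in hiHepD8 against NoBAL was lost without any 1 of the 4 libraries, the TUBG1 call in hiHepD8 against EmptyBAL without hiHepD8 replicate 1, and the TMSB10 call in EmptyBAL against NoBAL without NoBAL replicate 2.

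Scaling also mattered for the smaller differences. Upper quartile scaling moved the median difference of all genes from -0.03 to 0.16 in EmptyBAL against Control, from -0.02 to 0.15 in hiHepD8 against Control, from -0.03 to 0.16 in hiHepD8 against NoBAL and from -0.14 to 0.06 in EmptyBAL against NoBAL. Equal sums moved it to 0.64, 0.46, 0.16 and 0.23 in the same comparisons, from 0.04 to 0.30 in NoBAL against Control and from 0.05 to -0.16 in hiHepD8 against EmptyBAL. The TUBB4B call in hiHepD8 against Control was lost under both, and TUBA1B and STMN1 were called higher there under both, at 0.73 and 0.83 with upper quartile scaling and 1.08 and 1.19 with equal sums. With equal sums ACTB was called higher than Control in NoBAL (0.76, from 0.40) and in EmptyBAL (0.96, from 0.14), TMSB10 in NoBAL (1.17) and TUBG1 in hiHepD8 (0.60), and the TUBA1B call in EmptyBAL against NoBAL was lost (-0.57, from -1.04). TUBB6 and ACTG1 changed sign in EmptyBAL against Control with equal sums, to 0.40 and 0.43, and TUBG1 and ACTB changed sign in EmptyBAL against NoBAL under both. The other signs of the 9 members held under both scalings, apart from that of TMSB10 given above.

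Likeness between genes was described by Pearson's r of log2(FPKM + 1) over the 10 libraries, which fall into 5 groups and share their scaling, so no p is given. TUBB was closest to TUBA1B among the members, at 0.991, and ACTB to ACTG1, at 0.963. TUBB and ACTG1 stood at 0.344 and ACTG1 and TMSB10 at 0.233. TUBB6 was nearer to ACTB, at 0.835, than to TUBB, at 0.428. Outside the members, 4498 named genes that averaged 10 FPKM or more were searched, and the 3 nearest to each member are named. They were SSBP1, PPP2R1A and PPM1G for TUBB (0.988 to 0.991), AAAS, H2AFZ and HARS1 for TUBB4B (0.991 to 0.997), and CDK2AP1, PPP2R1A and NPM3 for TUBA1B (0.992 to 0.994). They were SNRPA, PPP1R14B and TALDO1 for TUBG1 (0.985 to 0.996) and DYNLL1, CHPF2 and HMGB2 for STMN1 (0.983 to 0.990). For ACTB they were PHLDA2, MAP2K3 and PLAUR (0.972 to 0.990), and for ACTG1 MAP2K3, PHLDA2 and CYSTM1 (0.963 to 0.973). For TMSB10 they were SPP1, CSTB and BST2 (0.978 to 0.982), and for TUBB6 DGKZ, MRPS2 and FLII, at no more than 0.913. ACTB and ACTG1 thus shared 2 of their 3 nearest genes, and TUBB and TUBA1B shared 1.

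The other genes of the cytoskeleton were taken from 9 lists of 197 genes, of which 177 had a row and 155 entered the test. These genes are not members and were tested over all 12180 genes. In NoBAL against Control 80 of the 155 passed (51.6%), 62 higher and 18 lower, where 49.4% of all genes passed. The shares of all genes were 25.2% higher and 24.2% lower, and they apply to each single list in this comparison. Their median difference was 0.56, against 0.04 for all genes. With equal sums, 80 were higher and 11 lower. With the Control and the hiHepD8 libraries averaged, 4 of them passed: TUBB2B, DYNLL1, ARPC5L and PFN2.

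Among the other tubulins 4 of 6 tested were higher and 1 lower in NoBAL than in Control. TUBA4A stood at 137 ± 28.9 FPKM against 8.04 ± 1.64 (log2 difference 3.93 ± 0.47, adjusted p = 0.00039) and TUBB2B at 34.7 ± 9.73 against 2.67 ± 0.521 (3.27 ± 0.22, 3.2e-05). The call of TUBA8 (1.28 ± 0.44, adjusted p = 0.044) was lost without any 1 of the 5 libraries, with an adjusted p of 0.097 to 0.156. Of the 9 gamma-tubulin ring genes that accompany TUBG1, 2 passed as higher and 2 as lower, with a median of -0.25, against 1.52 for TUBG1 itself.

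Genes that fold actin and tubulin were called in 1 direction: 13 of 19 passed as higher and none as lower (15 and none at an unadjusted p under 0.05, limma), with a median of 1.03. The CCT subunits, which form the ring in which both proteins fold, included CCT3 (2.19 ± 0.40, adjusted p = 0.0029), CCT7 (2.01 ± 0.22, 0.00028) and CCT5 (1.86 ± 0.23, 0.00049). PFDN4, a subunit of prefoldin, which delivers unfolded chains to that ring, rose by 2.09 ± 0.22 (0.00024). All 4 calls were lost with the Control and the hiHepD8 libraries averaged, with adjusted p of 0.178, 0.129, 0.132 and 0.0521.

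Among motor genes 13 of 22 passed as higher and 3 as lower. DYNLL1, a light chain of dynein and one of the 3 genes nearest to STMN1, rose by 3.19 ± 0.16 (adjusted p = 1e-05), from 6.03 ± 0.902 to 62.7 ± 0.186 FPKM. DCTN3 and DCTN5, subunits of dynactin, rose by 1.61 ± 0.19 (0.00039) and 1.67 ± 0.38 (0.0081), the latter call lost without NoBAL replicate 2 (1.27, 0.0643), and DYNLT1 rose by 1.08 ± 0.25 (0.0089). Microtubule regulators were mixed, with 4 of 26 higher and 5 lower (15.4% and 19.2%), below the shares of all genes (25.2% and 24.2%).

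Several partners of actin rose in NoBAL, where ACTB and ACTG1 differed from Control by 0.40 and 0.21. Of 13 other actin and Arp2/3 complex genes 7 were higher and none lower (8 and none at an unadjusted p under 0.05, limma). They included ARPC5L (2.71 ± 0.19, adjusted p = 4.1e-05), ARPC1A (1.88 ± 0.19, 0.0002), ARPC4 (1.43 ± 0.19, 0.0007) and ARPC1B (1.38 ± 0.34, 0.012), subunits of the complex that starts actin branches. Of 18 genes that bind actin monomers or cut filaments 10 were higher and 1 lower. The profilins PFN2 and PFN1 rose by 2.55 ± 0.21 (8e-05) and 2.15 ± 0.29 (0.00073), the capping protein CAPG by 2.36 ± 0.54 (0.0084) and cofilin, CFL1, by 1.62 ± 0.41 (0.013). Without NoBAL replicate 1 the calls of ARPC1B (1.21, 0.068) and CFL1 (1.33, 0.0747) were lost.

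Of 33 filament-binding genes 6 were higher and 6 lower (18.2% each), below the shares of all genes (25.2% and 24.2%). Villin, VIL1, which bundles actin in microvilli, fell by 2.46 ± 0.40 (adjusted p = 0.0017), and non-muscle myosin, MYH9, by 1.43 ± 0.31 (0.0068). Ezrin, EZR (1.48 ± 0.44, 0.024), and the tropomyosin TPM4 (1.38 ± 0.43, 0.03) were called as higher, but each call was lost without several single libraries, with adjusted p of up to 0.167 and 0.112. Of 9 intermediate filament genes 3 were higher, led by LMNB1 of the nuclear lamina (2.57 ± 0.24, 0.00015). KRT7, a keratin of bile duct cells (0.83 ± 0.30, 0.049), lost its call without any 1 of 4 libraries, with adjusted p of up to 0.251.

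Against Control, EmptyBAL had 80 of the 155 called (51.6%), 60 higher and 20 lower, where 53.7% of all genes passed. With the Control and the hiHepD8 libraries averaged, 6 passed. Upper quartile scaling gave 74 higher and 17 lower, and equal sums 112 and 8. In the list of actin monomer genes, to which TMSB10 relates, CAPG (4.38 ± 0.54, adjusted p = 0.00042) and TWF2, which encodes a twinfilin (2.96 ± 0.20, 2.8e-05), rose most. The EmptyBAL libraries were far apart for CAPG, at 138 ± 127 FPKM (SD, n = 2), and nearer for TWF2, at 73.6 ± 19.6. EmptyBAL against NoBAL had 47 called, 18 higher and 29 lower (30.3%), where 34.0% of all genes passed. There TMSB4X (2.58 ± 0.52, 0.011) and the leukocyte coronin CORO1A (2.43 ± 0.37, 0.0047) were the largest changes of that list. Their EmptyBAL libraries were far apart too, at 2002 ± 1549 and 70.7 ± 42.9 FPKM (SD, n = 2). With upper quartile scaling the split of the 47 called was 27 and 10 and with equal sums 33 and 3. With the libraries averaged none of the 155 passed (26 at an unadjusted p under 0.05). Without EmptyBAL replicate 2 the count was 88, and without NoBAL replicate 2 it was 30.

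In hiHepD8 against NoBAL 78 of the 155 passed (50.3%), 17 higher and 61 lower. There 47.3% of all genes passed, 22.5% as higher and 24.8% as lower. The median of the 155 was -0.53 against -0.03 for all genes. The folding genes were lower in 14 of 19 and higher in none (15 and none at an unadjusted p under 0.05, limma), with CCT3 at -2.07 ± 0.43 (adjusted p = 0.0062) and CCT5 at -1.71 ± 0.25 (0.0013). TUBB2B fell by 3.54 ± 0.24 (5.1e-05), TUBA4A by 3.26 ± 0.51 (0.0017), DYNLL1 by 2.27 ± 0.18 (8.6e-05) and ARPC5L by 3.34 ± 0.21 (4.1e-05). PFN1 fell by 2.72 ± 0.32 (0.00046), CFL1 by 2.62 ± 0.45 (0.0024) and LMNB1 by 3.26 ± 0.27 (9.9e-05). KRT8, a hepatocyte keratin, fell by 3.25 ± 0.49 (0.0014). Of the microtubule regulators 10 of 26 were higher and 6 lower, led by the tubulin deacetylase HDAC6 (1.36 ± 0.31, 0.0082), whose call was lost without hiHepD8 replicate 1 (1.35, 0.0518). ARPC4 fell by 1.43 ± 0.21 (0.0013). DCTN5 (-1.85 ± 0.42), MAPRE1 (-1.18 ± 0.35), TPM4 (-1.96 ± 0.47) and TPM3 (-1.34 ± 0.39) were called too, each call lost without at least 1 library, with adjusted p of up to 0.131.

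These counts fell with fewer hiHepD8 libraries in the fit. Without hiHepD8 replicate 1 or 2 the count in hiHepD8 against NoBAL was 42 or 44, and with the libraries averaged it was 3 (TUBB2B, ARPC5L and LMNB1). Against EmptyBAL, hiHepD8 had 58 of the 155 called (37.4%), 10 higher and 48 lower, where 40.2% of all genes passed. That count was 27 or 28 without hiHepD8 replicate 1 or 2 and 96 without EmptyBAL replicate 2. With the libraries averaged it was none (23 at an unadjusted p under 0.05).

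Against Control, hiHepD8 had 33 of the 155 called (21.3%), 14 higher and 19 lower. There 32.2% of all genes passed, 15.1% as higher and 17.1% as lower. With upper quartile scaling the split was 23 and 11, and with equal sums 38 and 8. None of the 6 other tubulins passed (1 lower at an unadjusted p under 0.05, limma), and 1 of 19 folding genes was higher and 1 lower. VIL1 fell by 3.11 ± 0.40 (adjusted p = 0.00098), KRT8 by 2.96 ± 0.44 (0.002) and KRT18, its partner keratin, by 2.48 ± 0.48 (0.0062). Calponin 3, CNN3, an actin-binding protein, rose by 2.08 ± 0.24 (0.00058), TWF2 by 1.43 ± 0.20 (0.0013) and the tubulin-folding cofactor TBCC by 1.26 ± 0.17 (0.0013). The KRT18 call was lost without either hiHepD8 library (adjusted p = 0.0563 and 0.0511). DYNLT1 (1.28 ± 0.25), DYNLL1 (0.92 ± 0.16), CFL2 (0.77 ± 0.16), PFDN1 (-0.90 ± 0.26), MAP7 (-1.42 ± 0.33), MAPRE1 (-1.20 ± 0.32) and ARPC5L (-0.63 ± 0.19) were called too, with adjusted p of 0.0042 to 0.041. Each of these 7 calls was lost without either hiHepD8 library, with adjusted p of up to 0.217.

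The count in hiHepD8 against Control was 9 to 18 without any 1 of its 5 libraries. With the libraries averaged none of the 155 passed (9 at an unadjusted p under 0.05). Genes tied to serum response factor, whose targets include several actin genes, were listed separately. Of 10 tested, 3 were higher and 5 lower in hiHepD8 than in Control, and none higher and 7 lower in NoBAL than in Control (none and 7 at an unadjusted p under 0.05, limma). Of all genes, 15.1% were called higher and 17.1% lower in hiHepD8, and 25.2% and 24.2% in NoBAL. SRF itself fell by 1.35 ± 0.26 (limma, adjusted p = 0.0068) in hiHepD8 and by 1.49 ± 0.26 (0.0027) in NoBAL, both against Control. The part of SRF in the actin values was not tested.

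**Figure D5:**
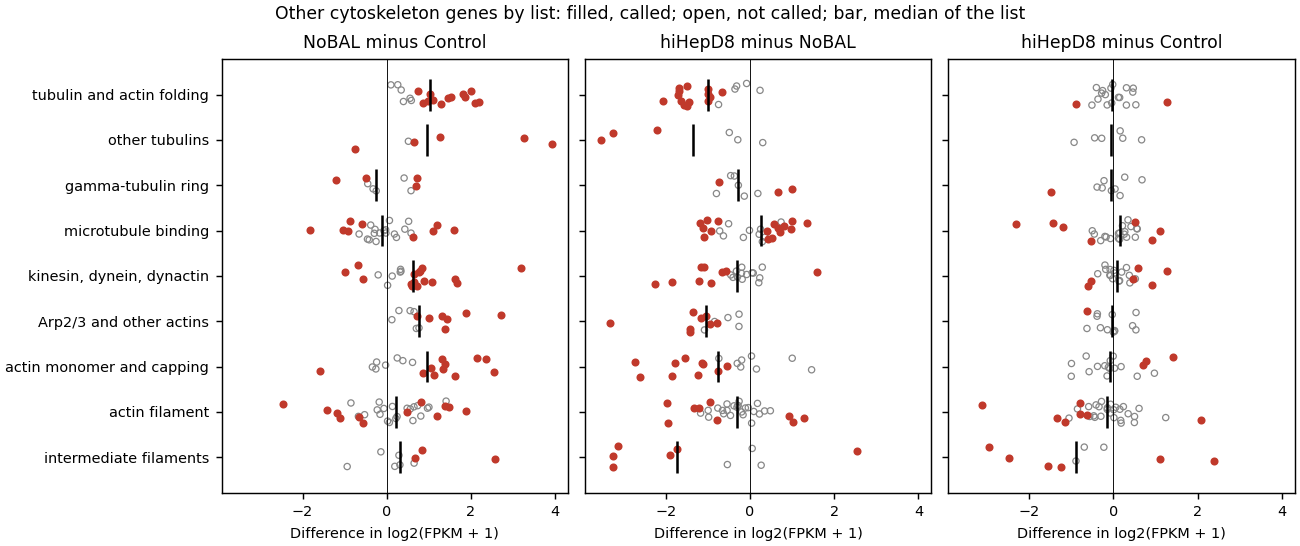
Difference in log2(FPKM + 1) of the tested genes of each cytoskeleton list (rows) in 3 comparisons. Each point is a gene, filled where called, with a vertical bar at the list median, which for the folding genes is 1.03 in NoBAL minus Control and -0.04 in hiHepD8 minus Control.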

How the data were processed

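Total RNA of pig liver was sequenced as paired-end libraries, per the labels' protocols. The authors deposited FPKM in 1 table, 10 libraries by 31905 genes. HISAT2, HTSeq and Cufflinks appear in the submitters' processing notes without roles, as do the builds mm10 (mouse, unused here) and Sscrofa11.1. Symbols came from the table (16497 genes) or a reference table (851), and for repeated symbols the row with the highest mean was used. Coordinates are those of Sscrofa11.1.

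Genes that reached 1 FPKM in 2 or more libraries were tested as log2(FPKM + 1), which understates changes of low genes, in 1 limma model (version 3.58.1, R 4.3.3) with 5 group means and a mean-variance trend, two-sided, Benjamini-Hochberg adjusted, called under 0.05. The script was tested on simulated data. hiHepD4, a single library, entered the fit but no test. Whole fragments could not be recovered from the values, so no counting error is given.

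The members and lists were chosen with earlier results of these data known. Other genes were named by rule: the called genes of each list with the largest change and at least 10 FPKM in the higher group, up to 4 for NoBAL against Control and 2 for other comparisons; for the EmptyBAL comparisons only those of the actin monomer list are printed. Some genes of the lists are not reported here by name, and some reference genes are left out. Alternatives were a pseudocount of 0.1, no filter on low values, no trend, a replicate block, upper quartile scaling, averaged Control and hiHepD8 libraries and each library left out; scaling all libraries to the same sum of FPKM was added after seeing the data. No sequences were used here, and a planned search for promoter motifs was not run.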

Additional observations from a re-analysis of the deposited data

How the results depend on the processing

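With the Control and the hiHepD8 libraries averaged to 1 value each, the cytoskeleton list genes and all genes called numbered 4 and 400 in NoBAL against Control, 6 and 745 in EmptyBAL against Control, 0 and 11 in hiHepD8 against Control, 3 and 257 in hiHepD8 against NoBAL, 0 and 2 in hiHepD8 against EmptyBAL, and 0 and 0 in EmptyBAL against NoBAL. For the 4 counts of 0, limma gave 9, 23, 26 and 2661 at an unadjusted p under 0.05. That setting kept 12 of the 102 calls of named genes. Same-numbered libraries were not shown to be paired (correlation of deviations -0.049 to 0.137, only 2 pairs, and no label that gives a pairing). With a replicate block the counts were 38 and 3138 in NoBAL against Control, 35 and 3802 in EmptyBAL against Control and 4 and 562 in EmptyBAL against NoBAL, where all 4 member calls were lost; the labels number only 1 of the 2 hiHepD8 libraries, so these share too few numbers with the other groups for a block. Leaving out 1 library at a time gave, for list genes and all genes, 60 to 76 and 4599 to 5521 in NoBAL against Control, 56 to 108 and 5154 to 7562 in EmptyBAL against Control, 9 to 18 and 1524 to 2619 in hiHepD8 against Control, 42 to 73 and 3233 to 5383 in hiHepD8 against NoBAL, 27 to 96 and 2253 to 6711 in hiHepD8 against EmptyBAL, and 30 to 88 and 3087 to 6598 in EmptyBAL against NoBAL. A group left with 1 library was assumed to vary like the others. The cause was not tested, beyond the smaller number of libraries that these settings leave.

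The other settings kept all of these counts within 1.5 times. The split of all genes into higher and lower moved with scaling, from 3068 and 2953 to 3809 and 1929 in NoBAL against Control with all libraries set to the same sum. With upper quartile scaling and with equal sums, in that order, it moved from 2967 and 3573 to 3886 and 2897 or 6129 and 1692 in EmptyBAL against Control, from 1839 and 2084 to 2615 and 1576 or 3934 and 1012 in hiHepD8 against Control, from 2740 and 3024 to 3506 and 2303 or 3200 and 2105 in hiHepD8 against NoBAL, and from 1535 and 2611 to 2248 and 1280 or 2812 and 481 in EmptyBAL against NoBAL. In hiHepD8 against EmptyBAL equal sums moved it from 2751 and 2144 to 1816 and 2923. Depth is unknown, so its effect on low genes cannot be given.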

Other observations

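The keratin and vimentin genes, intermediate filament genes outside the members, took courses of their own. KRT8, a keratin of hepatocytes, had 693 to 733 FPKM in the Control libraries, 828 and 911 in those of NoBAL, 134 and 448 in those of EmptyBAL, 1679 in the hiHepD4 library, and 89.7 and 90.8 in those of hiHepD8, so its highest and lowest levels were those of the 2 times under the cell-filled device. VIM, a filament of mesenchymal and blood cells, had 119.7 to 121 FPKM in the Control libraries, 106 and 113 in those of NoBAL, 640.4 and 286 in those of EmptyBAL, 37.1 in the hiHepD4 library, and 640.4 and 641 in hiHepD8. It rose by 2.40 ± 0.32 (SE) in hiHepD8 against Control (limma, adjusted p = 0.0011). These genes were singled out after their values were seen, and hiHepD4 is 1 library.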
